A study of Homo sapiens with 18 samples.

Results

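The genes described here were chosen as a list by name and function, with earlier results of these data known. They are 43 factors that build ribosomes in the nucleolus. Of these, 36 had a probe with that single gene symbol among the 21448 probes of the array, 1 probe per gene, and all 36 entered the test because no filter on signal was used. NOP56, DKC1, WDR43, BOP1, DDX18, GNL3 and PPAN have no such probe in the table and were not analysed here. The measurements came from 18 arrays of OCI-AML3 cells, a human acute myeloid leukaemia line whose genotype the labels give as wildtype, in 3 groups of 6. One group received the solvent DMSO, one RG7112 at 2 µM and one HDM201 at 500 nM, each for 24 h, and both compounds block the binding of MDM2 to p53. The medium in every group was RPMI with fetal calf serum, and all groups share the alterations of this 1 line. Replicates are labelled biological, with nothing on how their cultures were kept apart, so a p-value here reflects only the spread among these samples.

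Ribosomes begin in the nucleolus, where RNA polymerase I copies the ribosomal DNA into a long precursor. Small nucleolar ribonucleoproteins (snoRNPs) modify the precursor, the small subunit processome folds and cuts its first part, and other factors assemble the large subunit on the rest. When this assembly line is disturbed, a complex of 5S RNA with ribosomal proteins can bind MDM2 and so release p53, and p53 in turn can restrain polymerase I. NPM1, the nucleolar chaperone nucleophosmin, is mutated in OCI-AML3 in a way that carries the protein into the cytoplasm. These probe signals do not tell the mutant from the normal transcript.

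The p53 response and the cell type were checked first. CDKN1A, the cell cycle inhibitor induced by p53, was 3.97 ± 0.33 higher on the log2 scale (difference ± standard error, n = 6 per group) with RG7112 and 4.10 ± 0.33 higher with HDM201. MDM2 was higher by 2.57 and 2.58. Among myeloid markers LYZ, SPI1, CEBPA and ANPEP had mean DMSO signals of 12.7, 10.3, 9.90 and 9.46, whereas KIT (3.61), MPO (5.41) and CD14 (5.78) were low. The T-cell and B-cell markers CD3D, CD3G, CD2 and MS4A1 lay at 3.68 to 3.82, where array minima were 2.66 to 2.85 and array medians 6.44 to 6.57, while CD3E stood at 4.76. Other markers on the lymphocyte list were brighter, with CD79B at 6.40, CD79A at 6.83, NKG7 at 7.65 and NCAM1 at 11.8. Of the 9 lymphocyte markers measured, CD79B rose with RG7112, and none passed with HDM201. The summed signal of these 9 was 11.87 to 12.08 on the log2 scale in DMSO, 11.23 to 11.998 with RG7112 and 11.76 to 11.95 with HDM201. Of 9 fibroblast and epithelial markers KRT8 rose with RG7112 and EPCAM fell with HDM201, and their summed signal was 9.34 to 9.69, 9.49 to 10.3 and 9.51 to 9.84. No marker of erythroid cells or megakaryocytes passed, and those 9 summed to 9.04 to 9.35, 9.29 to 9.93 and 9.16 to 9.46. Within the myeloid list ITGAM rose by 2.09 and 2.18 and SPI1 by 0.34 and 0.38, with summed signals of 13.03 to 13.45, 13.41 to 13.65 and 13.46 to 13.60. The part of these markers in the results on ribosome biogenesis was not tested.

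With RG7112 15 of the 36 measured genes fell and 0 rose, where a change means a p in limma under 0.05 after Benjamini-Hochberg adjustment across all probes. Among the 21448 probes 2062 (9.61%) fell and 7.9% rose. Of the 21 that did not pass, NOC2L was higher at an unadjusted p under 0.05. The point estimate was below 0 for 32 of the 36, with a median of -0.26 on the log2 scale against 0.03 over all probes. With HDM201 14 of the 36 fell and 0 rose, and none of the others was higher at an unadjusted p under 0.05. Here 2067 (9.64%) of all probes fell and 9.16% rose. Again 32 estimates were below 0, and the median was -0.33 against 0.02. Probes of similar signal also fell more often than all probes. Among the 3811 probes whose mean signal lay between the lower and upper quartile of these genes, 18.4% fell with RG7112 and 17.3% with HDM201, with medians of -0.06 and -0.02. Both comparisons use the same DMSO arrays, so their values are given side by side and are not independent. In bulk RNA a smaller share of cells with a transcript and less of it per cell cannot be told apart.

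**Figure D1:**
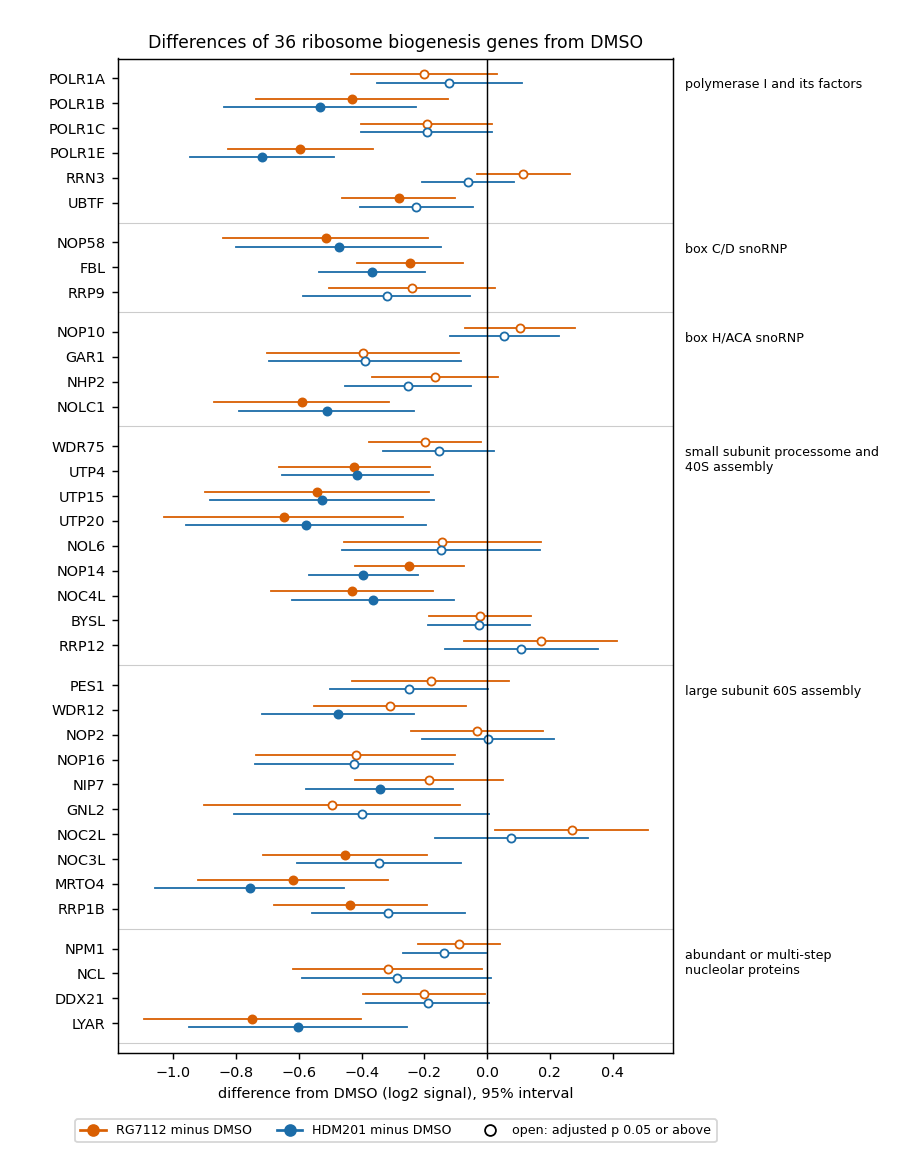
Difference from DMSO of each of the 36 genes in log2 signal, with 95% intervals from limma, RG7112 in orange and HDM201 in blue, in order of role; filled points have an adjusted p under 0.05. Most points lie left of 0, POLR1E, MRTO4 and LYAR farthest, while NOC2L and RRP12 lie right of it and BYSL and NOP2 lie near it.

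Among the 6 genes of the polymerase I machinery, POLR1B, POLR1E and UBTF fell with RG7112, and POLR1B and POLR1E fell with HDM201. POLR1E encodes a polymerase I subunit (PAF53) that helps the enzyme start and proceed along the gene. Its lowest, median and highest signals were 8.79, 9.11 and 9.25 on the DMSO arrays, 8.31, 8.46 and 8.76 with RG7112 and 8.05, 8.36 and 8.77 with HDM201. Every treated array lay below every DMSO array. The gene fell by 0.60 ± 0.11 with RG7112 (1.51-fold, adjusted p = 0.000597) and by 0.72 ± 0.11 with HDM201 (1.64-fold, adjusted p = 6.0e-05).

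POLR1B, the second largest subunit, which forms part of the catalytic centre, read 6.90, 7.22 and 7.39 (lowest, median, highest) in DMSO, 6.41, 6.67 and 7.18 with RG7112 and 6.26, 6.66 and 6.98 with HDM201. The groups overlapped, with 4 arrays of each compound below the lowest DMSO array. It fell by 0.43 ± 0.15 (adjusted p = 0.0474) and 0.53 ± 0.15 (adjusted p = 0.0126). UBTF, the factor that bends and opens the ribosomal DNA for polymerase I, read 9.69, 9.85 and 9.94 in DMSO, 9.20, 9.58 and 9.75 with RG7112 and 9.50, 9.56 and 9.78 with HDM201. In each treated group 5 of 6 arrays lay below all DMSO arrays. UBTF fell by 0.28 ± 0.09 with RG7112 (adjusted p = 0.0279), and the HDM201 difference of -0.23 ± 0.09 did not pass (adjusted p = 0.0772).

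The largest catalytic subunit, POLR1A, did not pass with either compound. Its signals were 9.41, 9.64 and 9.76 in DMSO, 8.86, 9.48 and 9.71 with RG7112 and 9.43, 9.47 and 9.61 with HDM201, so the groups overlapped, with 3 RG7112 arrays and 0 HDM201 arrays below the lowest DMSO array. The differences were -0.20 (95% interval -0.43 to 0.03) and -0.12 (-0.35 to 0.11). POLR1C, a subunit shared with polymerase III, differed by -0.19 in each comparison without passing. RRN3, the initiation factor that makes polymerase I competent to start, differed by 0.12 (adjusted p = 0.282) and -0.06 (adjusted p = 0.637).

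Box C/D snoRNPs guide methylation of ribosomal RNA, and 2 of their 3 measured proteins fell with each compound. FBL, the methyltransferase fibrillarin, read 10.74, 10.82 and 10.98 in DMSO, 10.47, 10.57 and 10.76 with RG7112 and 10.25, 10.49 and 10.65 with HDM201. With HDM201 all 6 arrays lay below the DMSO arrays, and with RG7112 5 did. FBL fell by 0.25 ± 0.08 (1.19-fold, adjusted p = 0.0392) and 0.37 ± 0.08 (1.29-fold, adjusted p = 0.00229). NOP58, a core scaffold of the same particles, fell by 0.52 ± 0.16 (adjusted p = 0.0265) and 0.47 ± 0.16 (adjusted p = 0.0381). For NOP58 all 6 HDM201 arrays, at 10.02 to 10.54, lay below the DMSO arrays at 10.57 to 10.86. RRP9, a protein of the U3 particle, read 7.09, 7.52 and 7.86 in DMSO, 6.91, 7.21 and 7.59 with RG7112 and 6.86, 7.17 and 7.32 with HDM201. RRP9 did not pass, at -0.24 (adjusted p = 0.214) and -0.32 (adjusted p = 0.09).

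Box H/ACA snoRNPs guide pseudouridylation, and of the 4 measured genes of this branch only NOLC1 fell, with both compounds. NOLC1 (Nopp140) is a phosphoprotein chaperone of snoRNPs. It read 10.39, 10.54 and 10.66 in DMSO, 9.22, 10.05 and 10.23 with RG7112 and 9.84, 9.95 and 10.32 with HDM201. No treated array reached the lowest DMSO array. The gene fell by 0.59 ± 0.13 (1.51-fold, adjusted p = 0.00361) and 0.51 ± 0.13 (1.43-fold, adjusted p = 0.00895).

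The H/ACA core proteins did not pass. GAR1 read 8.53, 8.86 and 9.12 in DMSO, 8.07, 8.43 and 8.73 with RG7112 and 8.19, 8.36 and 9.02 with HDM201. Its differences of -0.40 ± 0.15 (adjusted p = 0.0693) and -0.39 ± 0.15 (adjusted p = 0.0724) missed the threshold. NHP2 differed by -0.17 and -0.25, and NOP10 by 0.10 and 0.06. All treated arrays of NOP10 lay at or above its lowest DMSO array.

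In the small subunit branch 5 of 9 measured genes fell with each compound, and they were UTP4, UTP15, UTP20, NOP14 and NOC4L in both comparisons. UTP20, a large scaffold protein of the processome, read 7.43, 7.97 and 8.30 in DMSO, 6.66, 7.37 and 7.71 with RG7112 and 6.97, 7.40 and 7.98 with HDM201. The arrays overlapped, with 3 RG7112 and 4 HDM201 arrays below the lowest DMSO array. UTP20 fell by 0.65 ± 0.18 (1.57-fold, adjusted p = 0.017) and 0.58 ± 0.18 (1.49-fold, adjusted p = 0.0302). UTP4 and UTP15 belong to the t-UTP complex, the part of the processome that binds the precursor first. UTP4 fell by 0.42 ± 0.12 and 0.41 ± 0.12 and UTP15 by 0.54 ± 0.17 and 0.53 ± 0.17.

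NOP14 and NOC4L, which work together in maturation of the small subunit, fell by 0.25 and 0.43 with RG7112 and by 0.39 and 0.36 with HDM201. WDR75, another t-UTP protein, differed by -0.20 (adjusted p = 0.118) and -0.15 (adjusted p = 0.249) and did not pass. It read 10.19, 10.46 and 10.52 in DMSO, 10.05, 10.24 and 10.42 with RG7112 and 10.14, 10.23 and 10.52 with HDM201, with 2 arrays of each compound below the DMSO range. NOL6, a structural processome protein, differed by -0.14 and -0.15. BYSL, which acts late in maturation of the small subunit, differed by -0.02 and -0.03, with 95% intervals of -0.19 to 0.14 in both comparisons. RRP12, which serves in export and late maturation, differed by 0.17 (-0.07 to 0.41) and 0.11 (-0.13 to 0.35).

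The promoters of 3 of the 36 genes are shown because they hold the E-box CACGTG, the sequence bound by MYC with MAX. This motif was picked because MYC itself fell, and any part of MYC at these promoters was not tested. RefSeq promoter windows on GRCh38.p14 were found for 31 of the 36 genes, all but POLR1E, NOP58, NOLC1, RRP12 and RRP1B, and the 250 bases before each start were searched on both strands. The E-box occurred for 5 of 31 genes (16.1%), namely UTP20, NOP10, UTP4, LYAR and DDX21, against 9.73% of 15843 protein-coding genes and 7.73% of all 27305 genes in the table. The windows of LYAR and DDX21 overlap transcribed sequence of their own genes, from another start, and that of LYAR also overlaps ZBTB49. These windows are not printed. Each line runs 5′ to 3′ on the gene's strand up to the base before the start, and capitals mark the E-box. NOP10 and UTP4 are trimmed to the stretch outside a neighbouring gene.
UTP20, chr12:101279855-101280104, plus strand: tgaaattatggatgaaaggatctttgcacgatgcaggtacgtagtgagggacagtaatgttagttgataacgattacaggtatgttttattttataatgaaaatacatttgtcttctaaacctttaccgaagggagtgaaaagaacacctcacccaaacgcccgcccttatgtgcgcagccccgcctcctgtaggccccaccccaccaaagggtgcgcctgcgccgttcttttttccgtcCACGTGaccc
NOP10, chr15:34343137-34343314, minus strand: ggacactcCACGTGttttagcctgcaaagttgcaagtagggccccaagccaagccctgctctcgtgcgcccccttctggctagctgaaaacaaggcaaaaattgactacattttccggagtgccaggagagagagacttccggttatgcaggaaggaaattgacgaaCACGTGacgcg
UTP4, chr16:69132589-69132648, plus strand: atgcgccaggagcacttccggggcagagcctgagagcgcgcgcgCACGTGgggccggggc
The E-box begins 10 bases before the start of UTP20 and 16 before that of UTP4, and NOP10 has one at 11 and another at 170. UTP20 and UTP4 fell with both compounds and NOP10 passed with neither. The other motifs searched were the ETS-type core CCGGAAG, in 13 of 31 genes (41.9%, against 14% of protein-coding genes), and the GC box GGGCGG, in 20 of 31 (64.5%, against 62.1%). The GC box can share an end letter with an E-box, and each motif was counted on its own. The E-box stood in 3 of the 13 genes with a window that fell with at least 1 compound (23.1%) and in 2 of the 18 that passed with neither (11.1%). For CCGGAAG the counts were 5 of 13 (38.5%) and 8 of 18 (44.4%). These matches are descriptions of the letters in a window and not binding sites.

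Of the 10 measured large subunit genes 3 fell with each compound. MRTO4, which holds the place of the ribosomal stalk on the immature large subunit, read 7.47, 7.71 and 8.11 in DMSO, 6.77, 7.18 and 7.36 with RG7112 and 6.54, 6.98 and 7.41 with HDM201. All 12 treated arrays lay below the DMSO arrays. MRTO4 fell by 0.62 ± 0.15 (1.54-fold, adjusted p = 0.00472) and 0.76 ± 0.15 (1.69-fold, adjusted p = 0.000618), the largest difference among the 36 genes with HDM201.

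With RG7112 the others were NOC3L, a partner of NOC2L on early large subunit particles, which fell by 0.45 ± 0.13 (adjusted p = 0.0149), and RRP1B, which fell by 0.44 ± 0.12 (adjusted p = 0.0123). Their HDM201 differences of -0.34 (adjusted p = 0.0623) and -0.31 (adjusted p = 0.0683) did not pass. With HDM201 the others were WDR12, part of the PeBoW complex with PES1 and BOP1, which fell by 0.47 ± 0.12 (adjusted p = 0.00537), and NIP7, which fell by 0.34 ± 0.11 (adjusted p = 0.0366). Their RG7112 differences were -0.31 (adjusted p = 0.0712) and -0.19 (adjusted p = 0.282). None of these 4 genes differed between the compounds past the threshold when the compounds were set against each other.

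PES1, the scaffold of the PeBoW complex, read 8.93, 9.24 and 9.43 in DMSO, 8.84, 8.98 and 9.38 with RG7112 and 8.70, 8.95 and 9.31 with HDM201. The groups overlapped, and the differences of -0.18 (-0.43 to 0.07) and -0.25 (-0.50 to 0.00) did not pass. GNL2, a GTPase of the large subunit pathway, had the largest difference that did not pass with RG7112, -0.49 ± 0.20 (adjusted p = 0.0878). It read 8.97, 9.19 and 9.44 in DMSO, 7.52, 8.94 and 9.09 with RG7112 and 8.47, 8.81 and 9.01 with HDM201. Replicate 3 of RG7112, at 7.52, was far below the other arrays. NOP16 differed by -0.42 ± 0.15 in each comparison (adjusted p = 0.0622 and 0.057), with 9.07, 9.44 and 9.60 in DMSO and 8.69, 8.88 and 9.47 with HDM201. NOP2, an RNA methyltransferase of the large subunit pathway, differed by -0.03 (-0.24 to 0.18) and 0.00 (-0.21 to 0.21). NOC2L lay higher with RG7112 by 0.27 (0.02 to 0.51) without passing (adjusted p = 0.123), and by 0.08 with HDM201.

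Of the 4 abundant or multi-step nucleolar proteins only LYAR fell. LYAR, a nucleolar zinc finger protein that promotes ribosomal RNA production and processing, read 8.76, 9.03 and 9.23 in DMSO, 7.47, 8.39 and 8.77 with RG7112 and 8.20, 8.36 and 8.88 with HDM201. In each treated group 5 arrays lay below the lowest DMSO array. LYAR fell by 0.75 ± 0.17 with RG7112 (1.68-fold, adjusted p = 0.00309), the largest difference among the 36 genes there, and by 0.60 ± 0.17 with HDM201 (1.52-fold, adjusted p = 0.0128).

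NPM1 read 11.28, 11.47 and 11.52 in DMSO, 11.24, 11.35 and 11.40 with RG7112 and 11.25, 11.29 and 11.33 with HDM201. The groups overlapped, and the differences were -0.09 (-0.22 to 0.04, adjusted p = 0.364) and -0.14 (-0.27 to -0.00, adjusted p = 0.154). NCL, nucleolin, which binds the precursor and loosens ribosomal chromatin, read 11.44, 11.56 and 11.59 in DMSO, 10.34, 11.34 and 11.54 with RG7112 and 11.11, 11.22 and 11.46 with HDM201. Most treated arrays were lower than the DMSO arrays, yet with differences of -0.32 ± 0.14 (adjusted p = 0.142) and -0.29 ± 0.14 (adjusted p = 0.194) the gene did not pass. The helicase DDX21, which links polymerase I transcription with processing, differed by -0.20 and -0.19 without passing.

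**Figure D2:**
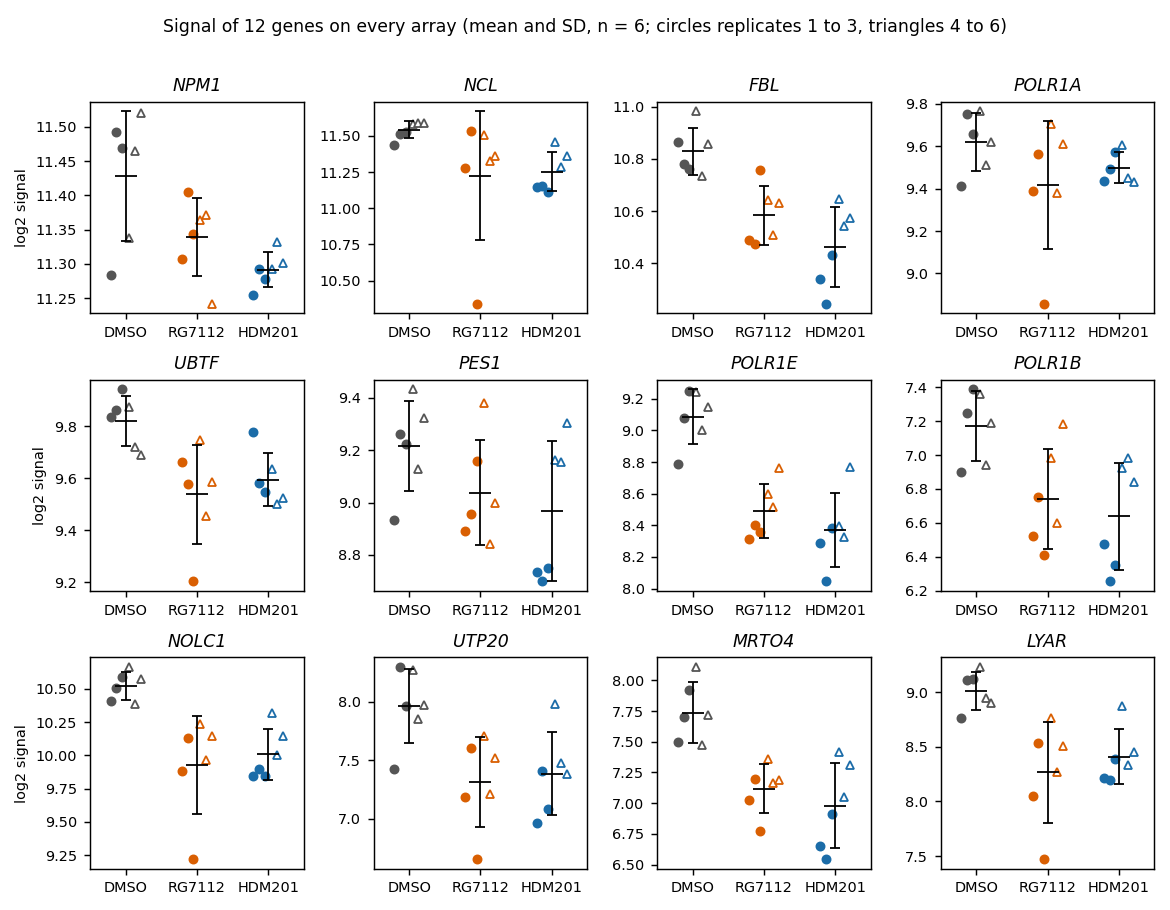
Log2 signal of 12 genes on each of the 18 arrays, by group, with mean and SD (n = 6); circles are replicates 1 to 3 and triangles replicates 4 to 6, and each panel has its own vertical scale that does not start at 0. For POLR1E, NOLC1 and MRTO4 no treated array reaches the DMSO arrays, while NPM1, POLR1A and PES1 overlap, and replicate 3 of RG7112 is the lowest array for NCL, NOLC1, UTP20 and LYAR.

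All 6 arrays lay below all 6 DMSO arrays for 3 of the 36 genes with RG7112 (POLR1E, NOLC1 and MRTO4; 5.61% of all probes) and for 5 with HDM201 (POLR1E, NOP58, FBL, NOLC1 and MRTO4; 6.92% of all probes).

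Several calls lay near the threshold. With RG7112 the calls of POLR1E, NOLC1, UTP4, UTP20, NOC3L, MRTO4, RRP1B and LYAR held when any 1 of the 18 arrays was left out. That of NOP58 was lost without DMSO replicate 3 (adjusted p = 0.0582) and that of NOC4L without DMSO replicate 4 (adjusted p = 0.053). UBTF was lost without DMSO replicate 2, 3 or 4 or RG7112 replicate 3 or 5 (adjusted p of 0.0504 to 0.0667), and FBL without DMSO replicate 1, 2, 4 or 6 or RG7112 replicate 1, 2 or 5 (0.0538 to 0.0942). UTP15 was lost without DMSO replicate 2, 3, 4 or 6 or RG7112 replicate 1, 3, 5 or 6 (adjusted p of 0.0601 to 0.0873). POLR1B was lost without any 1 of 10 arrays, which were DMSO replicates 2, 3, 4 and 6, RG7112 replicates 1, 2, 3 and 5 and HDM201 replicates 1 and 6 (0.0512 to 0.104). NOP14 kept its call only when DMSO replicate 5, replicate 2 or 4 of RG7112, or replicate 1 or 4 of HDM201 was left out, and lost it without any other array (0.0503 to 0.110). Calls were gained by GAR1 when DMSO replicate 1, RG7112 replicate 2 or 4, or HDM201 replicate 4 was left out (adjusted p of 0.0366 to 0.0498), by WDR12 without DMSO replicate 1 or RG7112 replicate 4 (0.0436 to 0.04996), by NOP16 when replicate 5 of DMSO or replicate 4 of either compound was left out (0.0210 to 0.0415) and, upwards, by NOC2L without RG7112 replicate 2 (0.0353).

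With HDM201 the calls of POLR1B, POLR1E, FBL, NOLC1, UTP4, NOP14, WDR12, MRTO4 and LYAR held without any 1 array. UTP20 was lost without DMSO replicate 2, 3, 4 or 6 or HDM201 replicate 1, 2 or 3 (adjusted p of 0.0502 to 0.0832), and UTP15 without DMSO replicate 2, 3, 4 or 6 or HDM201 replicate 1, 3, 5 or 6 (0.0527 to 0.0955). NIP7 was lost without DMSO replicate 2, 3, 4 or 6 or HDM201 replicate 1, 2, 3 or 5 (0.0588 to 0.104), and NOP58 without DMSO replicates 2 to 6, each alone, or HDM201 replicate 1, 2, 3 or 5 (0.0560 to 0.0900). NOC4L was lost without DMSO replicate 2, 3, 4 or 6, RG7112 replicate 1 or 5, or HDM201 replicate 1, 2, 5 or 6 (0.0520 to 0.114). Replicate 3 of RG7112 enters the HDM201 comparison through the shared variance, and without it UBTF, GAR1, NHP2, NOP16, GNL2, NOC3L, RRP1B and NCL also passed, at adjusted p down to 0.00513 for NCL, 0.00815 for GNL2, 0.0220 for UBTF and 0.0323 for NHP2. In the ranges that follow, that array is included. Other gains were RRP9 without DMSO replicate 5 (0.0324), GAR1 without DMSO replicate 1 or 5 or HDM201 replicate 4 (0.00998 to 0.0493), NOP16 without DMSO replicate 1 or 5, RG7112 replicate 4 or HDM201 replicate 4 (0.0129 to 0.04996), NOC3L without DMSO replicate 1 or HDM201 replicate 4 (0.0196 to 0.0471) and RRP1B without DMSO replicate 1 (0.0108 to 0.0357).

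Set against each other at these doses, which differ, the compounds showed no gene of the 36 past the threshold in limma. None of all probes passed either (0%), and 749 probes, RRN3 among them as the only 1 of the 36, had an unadjusted p under 0.05. The differences of HDM201 from RG7112 ran from -0.19 for NOC2L to 0.14 for LYAR, with a median near 0. For 35 of the 36 genes the 95% interval lay within 0.5 of 0 on either side, and the bounds reached -0.44 for MRTO4 and 0.50 for GNL2. RRN3 differed by -0.18 (-0.32 to -0.03, adjusted p = 0.991).

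The genes varied together from array to array. Their mean signal on DMSO replicates 1 to 6 was 9.05, 9.30, 9.33, 9.39, 9.07 and 9.22, a group mean of 9.23 ± 0.14 (SD, n = 6). With RG7112 it was 8.87, 9.02, 8.68, 9.15, 8.89 and 9.02 (8.94 ± 0.16), and with HDM201 8.80, 8.78, 8.84, 9.16, 8.93 and 8.999 (8.92 ± 0.14). Among treated arrays only replicate 4 of each compound lay inside the DMSO range. Replicate 4 was the highest array for 20 genes in DMSO, 20 with RG7112 and 26 with HDM201, while DMSO replicates 1 and 5 were the lowest for 20 and 12. After the group means were removed, the mean correlation between pairs of these genes over the 18 arrays was 0.40, against 0.0011 for all probes and 0.094 for probes of similar signal. These points share arrays and normalization, and the value is a description.

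**Figure D3:**
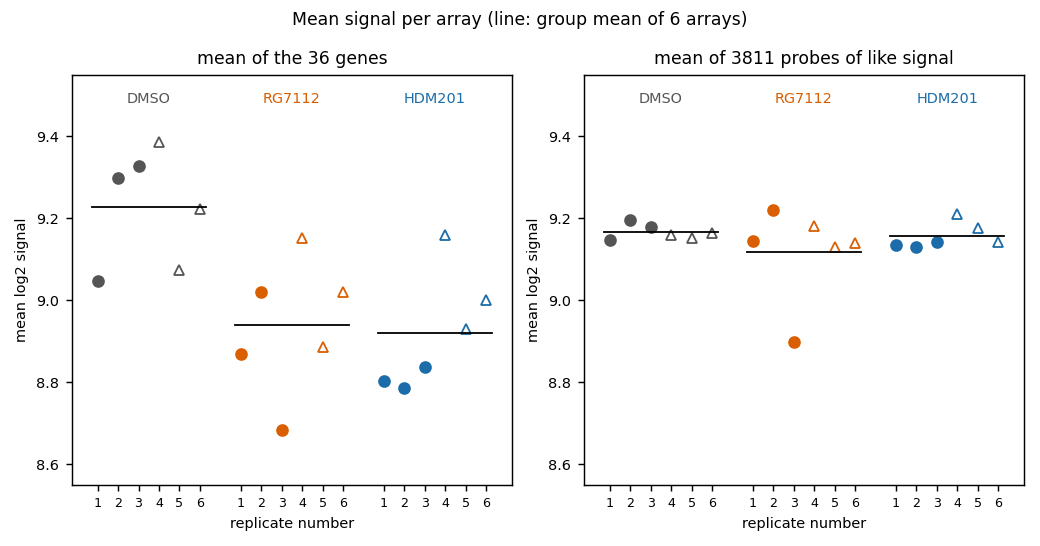
Mean log2 signal per array of the 36 genes and of the 3811 probes of similar signal, by group and replicate number, with a line at each group mean (circles replicates 1 to 3, triangles 4 to 6); the axis does not start at 0. The 36 genes are lower on treated arrays and vary between replicates, with replicate 4 high, whereas the probes of similar signal stay nearly level apart from replicate 3 of RG7112.

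The correlation of each gene's residuals with the mean of the others was highest for NOP16 (0.968), GAR1 (0.948), NOC3L (0.923), MRTO4 (0.899) and LYAR (0.897), over 18 arrays. It was low for NPM1 (0.148), NHP2 (0.131), RRN3 (0.130) and RRP12 (-0.062) and lowest for NOC2L (-0.393). None of these 5 genes passed in either comparison, and neither did NOP16 and GAR1.

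Replicate 3 of RG7112 stood apart. Its interquartile range was 3.45 on the log2 scale, against 3.70 to 3.91 on the other arrays, and it was the lowest RG7112 array for 22 of the 36 genes. The probes of similar signal averaged 8.90 on it and 9.13 to 9.22 on the others, and the part of this shift in the results was not tested. It was instead the highest RG7112 array for 7 genes. These were NOC2L (9.96), RRP12 (7.66), FBL (10.76), NIP7 (10.33), RRN3 (10.05), NHP2 (8.71) and RRP9 (7.59). Without this array 11 genes fell with RG7112, and the median difference was -0.25.

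**Figure D4:**
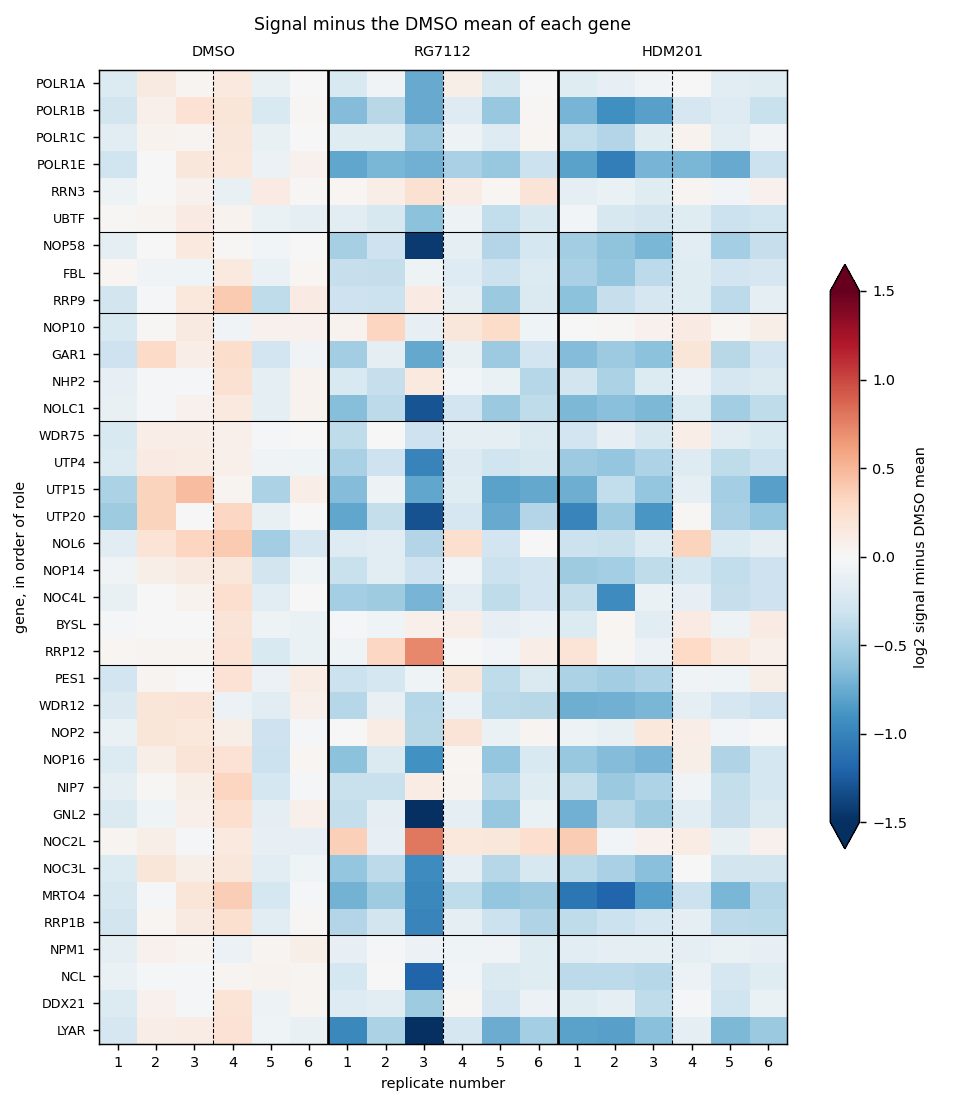
Signal of each of the 36 genes on every array minus that gene's DMSO mean, in log2 units (blue lower, red higher, colours end at 1.5 on either side), with genes in order of role, groups split by thick lines and replicates 1 to 3 and 4 to 6 by dashed lines. Blue is densest for replicates 1 to 3 of both compounds, replicate 3 of RG7112 holds the darkest cells, and NOC2L and RRP12 are red there.

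Replicates 1 to 3 and 4 to 6 formed separate sets in earlier results of these data, and the labels do not name them. In DMSO CDKN1A was 1.65 higher and MDM2 0.89 higher in replicates 1 to 3. Because the sets were known from these same data, no p-value is given for CDKN1A and MDM2. None of the 36 genes differed between the sets in DMSO, where 0.303% of all probes did, and none had an unadjusted p under 0.05. Their mean signal there was 9.22 ± 0.15 (SD, n = 3) and 9.23 ± 0.16.

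In a model with a mean for each group and set, 13 genes fell with RG7112 in replicates 1 to 3 (8.64% of all probes) and 1, POLR1E, in replicates 4 to 6 (3.87%). With HDM201 15 fell in replicates 1 to 3 (8.89%) and again only POLR1E in replicates 4 to 6 (4.46%). The median differences were -0.38 and -0.24 with RG7112 and -0.43 and -0.21 with HDM201. POLR1E fell by 0.68 and 0.51 with RG7112 (adjusted p = 0.00209 and 0.0321) and by 0.80 and 0.63 with HDM201 (adjusted p = 0.000374 and 0.00556).

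The difference between the sets was tested itself. No gene of the 36 had a change that differed between the sets, with RG7112 (0.0373% of all probes) or with HDM201 (0.149%). At an unadjusted p under 0.05 there were 0 such genes with RG7112 and 3 with HDM201, which were WDR12, POLR1B and MRTO4. The estimate was more negative in replicates 1 to 3 for 25 of the 36 genes with RG7112 and for 32 with HDM201, with medians of -0.18 and -0.20 against -0.0042 and -0.0062 over all probes. Probes of similar signal had medians of -0.08 and -0.06. Among the 116 other genes of the pathway described below, 88 and 101 were more negative in replicates 1 to 3, with medians of -0.17 and -0.18. So were 13 of the 14 G1/S genes described below in each comparison, with medians of -0.29 and -0.40. The widest gap was that of WDR12 with HDM201, which differed from DMSO by -0.77 in replicates 1 to 3 and by -0.18 in replicates 4 to 6, a difference of -0.59 (-0.98 to -0.20, adjusted p = 0.423). NOL6 differed by -0.39 and 0.11 with RG7112 and by -0.41 and 0.12 with HDM201, of opposite sign in the sets, and its test gave adjusted p of 0.846 and 0.854.

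**Figure D5:**
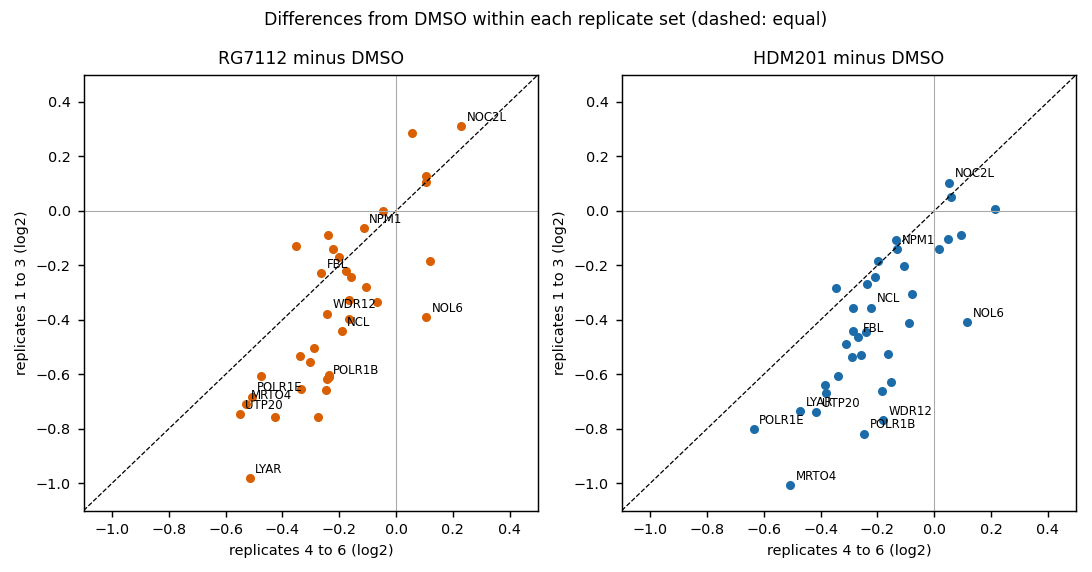
Difference from DMSO of the 36 genes in replicates 1 to 3 (vertical) against replicates 4 to 6 (horizontal), in log2 units, for RG7112 (left) and HDM201 (right), with a dashed line of equality. Most points lie below the line, 25 with RG7112 and 32 with HDM201, and POLR1E lies far from 0 on both axes.

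Other genes of the same pathway were taken from 4 lists of known factors, with 116 genes measured. Of these, 29 fell, 5 rose and 82 did not pass with RG7112, and 33 fell, 3 rose and 80 did not pass with HDM201, with medians of -0.21 in both comparisons. For these counts and those of the single lists, the shares over all probes were 9.61% and 9.64% falling and 7.9% and 9.16% rising, and among probes of similar signal to the 36 genes 18.4% and 17.3% fell. Of 13 further polymerase I genes 4 fell with each compound. They were the subunits POLR1F (-0.61 and -0.53) and POLR1G (-0.55 and -0.55), TAF1A of the selectivity factor (-0.38 and -0.53) and the termination factor TTF1 (-0.61 and -0.58). TAF1C, of the same selectivity factor, rose by 0.28 with RG7112 and did not pass with HDM201 (0.19).

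Among 44 further small subunit genes 10 fell and 1 rose with RG7112, and 11 fell and 1 rose with HDM201. UTP18 (-0.52 and -0.70), UTP11 (-0.51 and -0.52) and WDR3 (-0.51 and -0.50) fell in both comparisons, and ESF1 (-0.65) and DDX10 (-0.56) fell with RG7112 but did not pass with HDM201 (-0.33 and -0.40). UTP3 was the gene that rose, by 0.53 and 0.72. Among 46 further large subunit genes 11 fell and 2 rose with RG7112, and 12 fell and 1 rose with HDM201. CEBPZ (-0.69 and -0.55), BRIX1 (-0.52 and -0.59), LAS1L (-0.50 and -0.46) and PUM3 (-0.42 and -0.43) fell in both. RPF2 fell with RG7112 (-0.46) and did not pass with HDM201 (-0.39). ZNF622 rose by 0.26 and 0.27, and URB1 rose by 0.39 with RG7112.

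Of 13 further snoRNP genes and assembly factors 4 fell and 1 rose with RG7112, and 6 fell and 1 rose with HDM201. NUFIP1, which assembles box C/D particles, changed by -0.47 and -0.52, and SHQ1, which escorts DKC1 into H/ACA particles, by -0.40 and -0.31. The helicase RUVBL2 (-0.34 and -0.32) and SNU13, a core protein of C/D particles (-0.30 and -0.30), also fell in both. PIH1D1 (-0.49) and RUVBL1 (-0.41) fell with HDM201 and did not pass with RG7112 (-0.36 and -0.30). NOPCHAP1, a chaperone for NOP58, rose by 0.53 and 0.67 while NOP58 fell. In the list of the 5S complex and p53 surveillance, with 4 genes measured, RPL11 differed by 0.08 and 0.12 without passing. HEATR3, which carries the 5S ribosomal proteins, differed by -0.21 (adjusted p = 0.174) and fell by 0.36 with HDM201 (adjusted p = 0.0169). CDKN2A rose by 0.62 and 0.88.

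MYC, a known activator of many of these genes, was also lower with both compounds. It read 10.90, 11.002 and 11.10 (lowest, median, highest) in DMSO, 9.69, 10.58 and 10.75 with RG7112 and 10.15, 10.46 and 10.72 with HDM201, with all 12 treated arrays below the DMSO arrays. MYC fell by 0.54 ± 0.15 (adjusted p = 0.0156) and 0.55 ± 0.15 (adjusted p = 0.0123). By set the differences were -0.77 and -0.32 with RG7112 and -0.74 and -0.36 with HDM201, the first of each pair in replicates 1 to 3. The RG7112 value of that set includes replicate 3, where MYC read 9.69, against 10.47 and 10.33 on replicates 1 and 2. MXD1, which opposes MYC for MAX, rose by 0.30 and 0.58. Genes of the G1/S transition, chosen as a check of proliferation, fell in 13 of 14 cases with each compound, all but PCNA, with medians of -1.39 and -1.68. The part of MYC, of proliferation and of what underlies the replicate sets in the lower signal of the ribosome biogenesis genes was not tested.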

How the data were processed

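Gene expression was measured on 18 arrays. The values are log2 signals that the authors deposited after RMA in the oligo package, per the submitters' processing notes. RMA corrects background, gives the raw probe intensities of all arrays the same distribution and then combines them into the signals used here. A change in total RNA per cell is therefore not seen. The combined signals still differed in spread between arrays, with interquartile ranges of 3.45 to 3.91. Versions of both and the build: not given in the sources used here. The precision is limited by the number of arrays.

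Groups follow the labels. The model in limma 3.58.1 (R 4.3.3) had 1 mean for each group and used all 18 arrays, and a further model had 1 mean for each group and replicate set. Benjamini-Hochberg adjustment covered all 21448 probes, with a threshold of 0.05 and no filter. Scripts were tested on simulated data.

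The members and lists were chosen with earlier results of these data known, so no list was tested as a set. All measured members are named. Full values are given for NPM1, NCL, FBL, POLR1A, UBTF and PES1. They are also given for the 5 largest changes per comparison and for the largest difference without a call in each role. From each other list, except the p53 and G1/S checks, up to 4 changed genes with the largest difference are named per comparison. TAF1C, ZNF622, URB1, SNU13, RPL11, PCNA, the markers and the ranges of other members fall outside these rules and were chosen after their values were seen. Other settings for the variance, weights, filters, normalization, blocks and left-out arrays were tried.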

Additional observations from a re-analysis of the deposited data

Results flagged for a closer look

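In each group of 6 arrays the highest and the lowest value of each gene were set against the rest, over 120 groups, and chance alone marks about 1 in 20. In 9 groups 1 array lay far from the others. Of these, 6 were replicate 3 of RG7112, the array with the narrowest interquartile range. Its signals there were 9.27 for NOP58 (the other RG7112 arrays 10.21 to 10.57), 9.22 for NOLC1 (9.88 to 10.23), 9.44 for UTP4 (9.96 to 10.24), 7.52 for GNL2 (8.62 to 9.09), 7.59 for RRP1B (8.12 to 8.43) and 10.34 for NCL (11.28 to 11.54). The other arrays far from their group were HDM201 replicate 4 for NOL6, at 9.36 (8.70 to 8.88), HDM201 replicate 2 for NOC4L, at 8.33 (8.91 to 9.18), and DMSO replicate 4 for BYSL, at 8.71 (8.43 to 8.53).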

How the results depend on the processing

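No called gene of the 36 changed direction under any of the 31 alternatives, and the median difference stayed between -0.38 and -0.23 with RG7112 and between -0.43 and -0.21 with HDM201. The number of called genes was less stable, and the calls kept under every alternative were POLR1E and NOLC1 with RG7112 and POLR1E with HDM201. Fits to replicates 1 to 3 alone called 6 and 7 of the 36 genes (RG7112, HDM201), 9 and 19 of the 116 other genes and 1973 and 2504 of all probes. Fits to replicates 4 to 6 alone called 2 and 1, 11 and 10, and 2148 and 2595. The main counts were 15 and 14, 34 and 36, and 3757 and 4032, and these fits have fewer arrays. Array weights raised the HDM201 count to 23 of the 36. Leaving out each array in turn gave 9 to 18 of the 36 genes with RG7112 (9 without DMSO replicate 4, 18 without RG7112 replicate 4) and 9 to 22 with HDM201 (9 without DMSO replicate 2, 3, 4 or 6 or HDM201 replicate 1, 22 without RG7112 replicate 3). For the 116 other genes the ranges were 21 to 44 (22, 21 and 21 without DMSO replicates 2, 3 and 4) and 21 to 49 (21 and 22 without HDM201 replicates 1 and 2), and for all probes 3074 to 4085 and 3374 to 5212. Between the compounds 0 probes passed, or 1 without HDM201 replicate 6. NOL6, BYSL and NOP2 with both compounds and RRN3 with HDM201, none of them called, changed sign under some alternative.

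Samples with the same replicate number were not taken as pairs, since the labels do not tie the numbers to a day or culture. The correlations of their deviations were all above 0, from 0.0168 to 0.44, with 2 of 18 at or under 0.1. Of the 18 arrays 13 had their highest mean correlation with the arrays of their own number in the other groups. Only group means were removed here, and arrays of the same number lie in the same replicate set. Variation shared by a number was thus not separated from that of the sets, and the main model leaves both in the spread. With the replicate block 18 and 20 of the 36 genes and 4780 and 4866 of all probes were called.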
